A study of Mus musculus with 2 samples.

Results

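Aminoacyl-tRNA synthetases, the enzymes that load each amino acid onto its transfer RNA, were examined in mouse neural stem cells after knockdown of the histone variant H3.3. The 36 genes were chosen by symbol among the 18510 genes of the deposited table. Of these, 20 encode cytosolic enzymes or their subunits and 16 carry the suffix 2 and encode mitochondrial enzymes. Both groups were cells isolated at day 12 of gestation (E12) from embryonic brain of CD-1 mice, kept 5 days in a medium for proliferation and given lentivirus. In the H3.3 knockdown group the virus carried a plasmid against H3.3, of a sequence the labels do not state, and in the control group it carried a control plasmid. Each group held 1 library of polyadenylated RNA, so replicate error is unknown and no test between the groups could be run. The labels do not state the share of infected cells, and whether each library pooled several cultures or animals is likewise unknown.

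Most cells keep separate enzymes for the cytosol and for mitochondria, where mitochondrially encoded proteins are made. Several cytosolic synthetases sit together in a multi-synthetase complex. Gars and Kars each serve both compartments from a single gene, and Eprs loads both glutamate and proline. When amino acids are scarce or the integrated stress response is on, the transcription factor ATF4 is known to raise many cytosolic synthetase genes in mammalian cells, acting through a short C/EBP-ATF response element. The label fits the table, since its gene annotation lists a role in tRNA aminoacylation or tRNA ligase activity for all 36 genes.

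The libraries held 8702855 counts in the H3.3 knockdown and 9184779 in the control, and values are given as counts or as CPM (counts per library total, in the usual units of counts per 1e6). Both H3.3 genes were lower in the library labelled knockdown, with H3f3b at 447 CPM in the knockdown and 821 CPM in the control, and H3f3a at 135 CPM in the knockdown and 209 CPM in the control. A gene was said to have risen or fallen when its mean was at least 1 CPM, its ratio reached 1.5-fold and the exact 95% interval of the ratio, which covers counting error only, left out 1. Of 13989 tested genes, 17.2% passed this rule in either direction, 9.01% higher and 8.2% lower. Cell type markers differed between the libraries. Of 8 neuron markers 4 rose and 1 fell, with a summed level of 7067 CPM in the knockdown and 5202 CPM in the control, and of 6 proliferation markers 5 fell and none rose, with 787 CPM in the knockdown and 1573 CPM in the control. Of 7 oligodendrocyte lineage markers 5 fell and 1 rose (517 CPM in the knockdown, 802 CPM in the control), and of 8 neural progenitor markers 2 fell and none rose (4739 CPM in the knockdown, 4751 CPM in the control). Of 4 astrocyte markers 2 fell and none rose (398 CPM in the knockdown, 371 CPM in the control). Among those that fell, 1 oligodendrocyte and 1 astrocyte marker reached the filter of 1 CPM only through the control, where they are high. They were Enpp6 (1 count in the knockdown, 71 in the control) and S100b (7 in the knockdown, 68 in the control). Mesenchyme and pericyte markers summed to 56.3 CPM in the knockdown and 69.1 CPM in the control, with 3 of 5 higher and 2 lower. The 5 microglia markers summed to 3.79 CPM in the knockdown and 2.5 CPM in the control, all at low counts, and 2 reached the filter of 1 CPM. C1qa, which reached the filter through the knockdown, had 14 counts in the knockdown and 5 in the control. Cx3cr1 had 1 in the knockdown and 5 in the control and C1qb 1 in the knockdown and 4 in the control. Endothelial markers summed to 11.03 CPM in the knockdown and 7.08 CPM in the control, also with 1 of 2 tested members higher. The part of these differences in the synthetase values was not tested, and a change in the number of cells of a type cannot be told apart from a change of RNA per cell.

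The C/EBP-ATF response element is shown because the ATF4 comparison below sets genes that hold it side by side. None of the synthetases past the size rule was found to hold it: Nars2 and Sars2 had a window without it, and no window was used for Vars. The core searched was TGATGNAA on either strand (TTNCATCA on the other), in the 250 bases before and 50 after each start in RefSeq's GRCm38.p6 promoters, where 26 of the 36 synthetases had a window. It was found in 4.51% of 27025 genes with a window and in 5 of the 26 synthetases, all 5 of them cytosolic and none among 14 mitochondrial enzymes. All 5 belong to the 13 cytosolic enzymes described as raised through ATF4, of which 7 had a window. In the list of ATF4 and its stress targets, 8 of 21 genes with a window held it. The lines give 30 bases around the core, written on the gene's strand with the core in capitals, for 4 of these synthetases and then for 3 genes of the stress list that rose.
Gars (chr6:55037960-55037989, + strand): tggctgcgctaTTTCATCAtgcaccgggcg
Iars (chr13:49682126-49682155, + strand): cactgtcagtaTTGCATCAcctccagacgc
Tars (chr15:11399655-11399684, - strand): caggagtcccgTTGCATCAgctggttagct
Yars (chr4:129189895-129189924, + strand): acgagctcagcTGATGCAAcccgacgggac
Asns (chr6:7693214-7693243, - strand): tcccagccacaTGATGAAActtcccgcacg
Slc7a11 (chr3:50443661-50443690, - strand): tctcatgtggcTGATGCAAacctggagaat
Trib3 (chr2:152344028-152344057, - strand): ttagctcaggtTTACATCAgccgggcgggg
Slc7a11 held a second core in its window. A match is a stretch of letters in a window and says nothing of binding.

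All 36 synthetases were expressed in both libraries, none with fewer than 58 counts in either. Per kilobase of the longest coding transcript, the 20 cytosolic genes had a median level of 32.8 CPM in the knockdown and 37.2 CPM in the control, and the 16 mitochondrial genes 6.6 CPM in the knockdown and 8.09 CPM in the control. Per kilobase, 18 of 20 cytosolic genes in the knockdown and 19 of 20 in the control lay above every mitochondrial gene other than Lars2. Sars, the seryl enzyme of the cytosol, led the cytosolic genes per kilobase at 98.8 CPM in the knockdown and 102 CPM in the control. It was followed in the knockdown by Gars, Eprs, Wars, Kars and Nars at 56.9 to 52.1 CPM per kilobase, and in the control by Kars at 79.5 and Gars at 63.4 CPM per kilobase. Lowest per kilobase were mitochondrial enzymes, with Wars2 at 2.11 and Pars2 at 2.19 CPM per kilobase in the knockdown, and Nars2 at 2.54 and Mars2 at 2.64 CPM per kilobase in the control. In each library, 28 of the 35 pairs of neighbours in this order had overlapping 95% counting intervals, so most adjacent places cannot be separated. The order also depends on the length used. Per kilobase of all annotated exons Gars led the cytosolic genes, at 43.4 CPM in the knockdown and 48.4 CPM in the control. Sars stood at 35.8 CPM in the knockdown and 37.0 CPM in the control. Eprs moved from rank 4 to 15 of 36 in the knockdown and from 9 to 20 in the control. Rars2 moved from rank 20 to 19 in the knockdown and from 21 to 19 in the control, so more cytosolic genes lay below it.

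**Figure D1:**
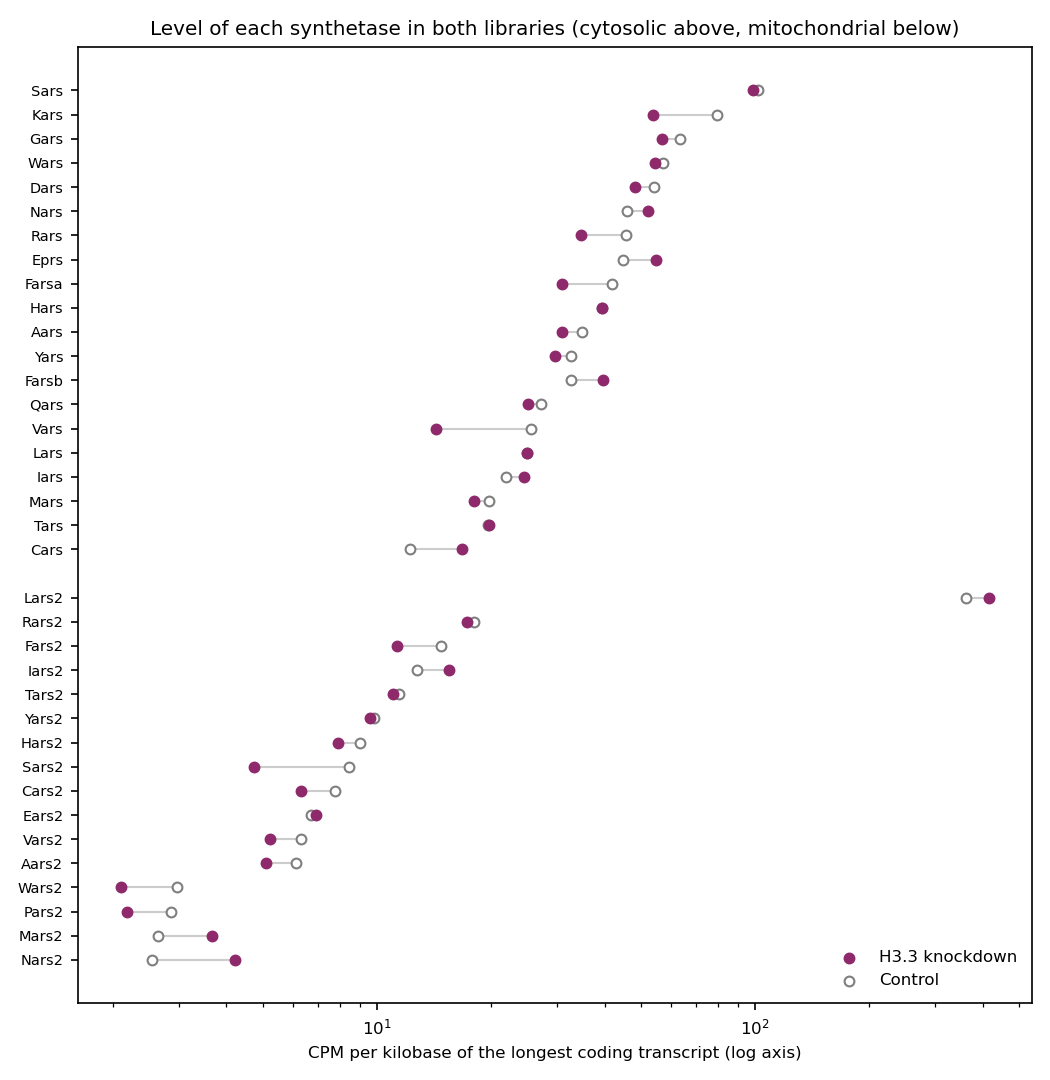
Level of each of the 36 synthetases in CPM per kilobase of its longest coding transcript (log axis), filled points for the H3.3 knockdown and open points for the control library, cytosolic genes above and mitochondrial genes below. Lars2 stands at 415 CPM per kilobase in the knockdown and 360 in the control, above the other mitochondrial genes, whose highest values are 17.3 in the knockdown and 18.1 in the control.

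Lars2, the mitochondrial leucyl enzyme (ENSMUSG00000035202, chromosome 9 from 123366940 to 123462664, plus strand), held 14049 counts in the knockdown and 12886 in the control. That was 81.9% of all counts of the 16 mitochondrial enzymes in the knockdown and 79.5% in the control, and per kilobase 24 times and 19.9 times the next mitochondrial enzyme. Its ratio was 1.15 (1.12 to 1.18), short of the rule. No longest coding transcript of a member shared at least 100 bases at 95% identity with an annotated transcript of another gene, apart from genes with overlapping exons. For Lars2 that transcript has 3894 bases while its exons total 11089, so the search did not cover all counted exon sequence. Whether all of its reads came from Lars2 mRNA was not tested. Summed values of the mitochondrial enzymes are therefore given with and without it.

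Few synthetases differed beyond 1.5-fold between the libraries, and none reached 2-fold. Of the 36 genes 1 rose, Nars2, and 2 fell, Vars and Sars2, or 8.33% of the members beside 17.2% of all tested genes. With a minimum mean of 10 CPM it was 3 of 35 members, beside 14.4% of all genes at that level. Nars2 (15.97 CPM in the knockdown, 9.58 CPM in the control) reached that minimum only through the knockdown, where it is high. Sars2 (8.85 CPM in the knockdown, 15.8 CPM in the control) reached it only through the control, where it is high. At a 2-fold limit the count was 0 of 36, beside 6.36% of all tested genes (3.82% higher and 2.54% lower). The authors' deposited table marks none of the 36 as differential. By the counting interval alone 9 members were higher and 10 lower (52.8%), beside 49.9% of all tested genes, of which 22.9% were higher and 27% lower, and so near that background. The members' median log2 ratio of knockdown over control was -0.09, with a standard deviation over genes of 0.34. Over all tested genes the median was -0.03 and the standard deviation 0.55, but that set reaches down to a mean of 1 CPM, whereas the lowest member had 7.69 CPM. Of the members, 19 of 36 lay within 1.2-fold of equal levels, beside 47.6% of all tested genes.

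**Figure D2:**
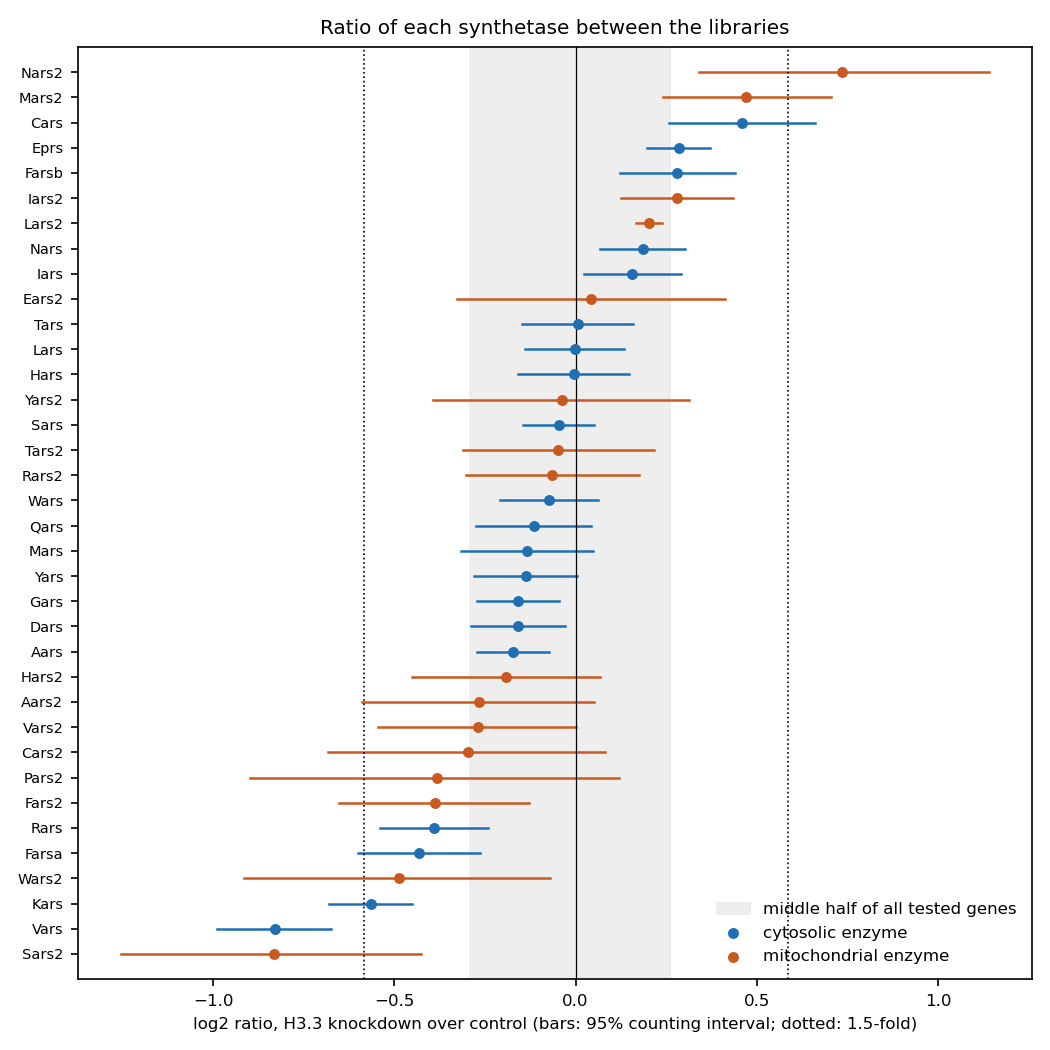
Log2 ratio of H3.3 knockdown over control for each synthetase (points) with its 95% counting interval (bars), cytosolic genes in blue and mitochondrial genes in orange, over the interquartile range of all tested genes (grey band, from -0.29 to 0.26) and the 1.5-fold limits (dotted). Nars2 lies beyond the upper limit and Vars and Sars2 beyond the lower one.

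Cytosolic and mitochondrial enzymes had similar medians. The median log2 ratio was -0.09 over the 20 cytosolic and -0.13 over the 16 mitochondrial genes, a difference of 0.03, and it was -0.19 over the mitochondrial genes without Lars2. With a minimum of 10 CPM the mitochondrial median was -0.06 and the difference -0.03. After correction for length and GC content the cytosolic median was -0.05 and the difference 0.07, and without Gars and Kars the cytosolic median was -0.06. Of the cytosolic genes 14 of 20 had a log2 ratio below 0, as did 11 of 16 mitochondrial genes and 52.9% of all tested genes. The signs of Hars (-0.005), Lars (-0.003) and Tars (0.006) depend on how the libraries are scaled. The 20 cytosolic genes summed to 2127 CPM in the knockdown and 2247 CPM in the control, a ratio of 0.946 (0.928 to 0.965). Without Gars and Kars the ratio of the cytosolic sums was closer to equal, at 0.975 (0.954 to 0.996). The 16 mitochondrial genes summed to 1972 CPM in the knockdown and 1765 CPM in the control, a ratio of 1.12 (1.09 to 1.14). Without Lars2 their sum was 358 CPM in the knockdown and 362 CPM in the control, and the ratio was 0.988 (0.941 to 1.04), an interval that spans 1. The sum of the mitochondrial enzymes was higher only with Lars2 in it. No test of the difference between compartments was possible with 1 library per group.

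Among cytosolic enzymes the valyl enzyme Vars (ENSMUSG00000007029, chromosome 17 from 35000987 to 35016322, plus strand) fell. It held 505 counts (58.0 CPM) in the knockdown and 948 counts (103 CPM) in the control, a log2 ratio of -0.83 and 0.562 of the control level (0.504 to 0.627). Its interval lay farthest from 1 of all members, and 4.46% of all tested genes were at least as low. Vars2, the mitochondrial enzyme for valine, had 201 counts in the knockdown and 256 in the control, and its interval reached 1 (0.829, 0.685 to 1.00). The 2 genes lie 639 kb apart on chromosome 17. Kars, the lysyl enzyme of both compartments (ENSMUSG00000031948, chromosome 8 from 111993440 to 112011323, minus strand), stopped just short of the limit, 1.48-fold lower. It held 118 CPM in the knockdown and 174 CPM in the control (log2 ratio -0.56, ratio 0.676, 0.625 to 0.732). Gars, the glycyl enzyme that also serves both compartments, had 135 CPM in the knockdown and 151 CPM in the control, at 0.896 of the control (0.829 to 0.969).

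The other cytosolic members with intervals off 1 differed less than Vars and Kars. Rars, the arginyl enzyme of the complex, had 73.2 CPM in the knockdown and 95.9 CPM in the control (ratio 0.763, 0.688 to 0.846). Aars and Dars, the alanyl and aspartyl enzymes, had log2 ratios of -0.17 and -0.16. On the higher side, Cars, the cysteinyl enzyme, had 470 counts (54.0 CPM) in the knockdown and 361 counts (39.3 CPM) in the control, a ratio of 1.37 (1.195 to 1.58). Eprs, the most abundant cytosolic member by CPM, had 268 CPM in the knockdown and 220 CPM in the control (1.22, 1.15 to 1.29). The log2 ratios of Nars and Iars, the asparaginyl and isoleucyl enzymes, were 0.18 and 0.16. Sars, at 184 CPM in the knockdown and 190 CPM in the control, had a ratio of 0.968 with an interval from 0.904 to 1.04. Hars, Lars and Tars, the enzymes for histidine, leucine and threonine, had ratios of 0.997, 0.998 and 1.00. Intervals of Mars, Qars, Wars and Yars, the enzymes for methionine, glutamine, tryptophan and tyrosine, also spanned 1, with ratios from 0.908 to 0.951.

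The subunits of the cytosolic phenylalanyl enzyme went apart. Farsa, the alpha subunit (ENSMUSG00000003808, chromosome 8 from 84856989 to 84869257, plus strand), had 492 counts (56.5 CPM) in the knockdown and 700 counts (76.2 CPM) in the control. Farsb, the beta subunit (ENSMUSG00000026245, chromosome 1 from 78417975 to 78488897, minus strand), had 700 counts (80.4 CPM) in the knockdown and 608 counts (66.2 CPM) in the control. Farsa was thus lower and Farsb higher, with ratios of 0.742 (0.660 to 0.834) and 1.22 (1.09 to 1.36), neither past 1.5-fold. Counts of Farsa over Farsb were 0.703 in the knockdown and 1.15 in the control, and the ratio of these, 0.611 (0.519 to 0.718), does not depend on how the libraries are scaled. The promoter windows of both genes lacked the core shown above.

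Among mitochondrial enzymes the asparaginyl enzyme Nars2 (ENSMUSG00000018995, chromosome 7 from 96951505 to 97064758, plus strand) rose. It had 139 counts (15.97 CPM) in the knockdown and 88 counts (9.58 CPM) in the control, 1.67-fold higher (1.27 to 2.20), and 8.05% of all tested genes were at least as high. The seryl enzyme Sars2 (ENSMUSG00000070699, chromosome 7 from 28741968 to 28753879, plus strand) fell. Its counts were 77 (8.85 CPM) in the knockdown and 145 (15.8 CPM) in the control, or 0.560 of the control (0.419 to 0.744). Both calls rest on low counts and their intervals are wide. Mars2, the methionyl enzyme, had 360 counts in the knockdown and 274 in the control, 1.39 times the control (1.18 to 1.63). Iars2, the isoleucyl enzyme, had 740 counts in the knockdown and 643 in the control (1.21, 1.09 to 1.35). Fars2 and Wars2, the phenylalanyl and tryptophanyl enzymes, were lower, at 0.763 (0.636 to 0.915) and 0.712 (0.531 to 0.952) of the control. The counting intervals of the other 9 mitochondrial enzymes spanned 1. They were Aars2, Cars2, Ears2, Hars2, Pars2, Rars2, Tars2, Vars2 and Yars2, with log2 ratios from -0.38 for the prolyl enzyme Pars2 to 0.04 for the glutamyl enzyme Ears2.

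Cytosolic and mitochondrial enzymes for the same amino acid were compared within each library. In 17 pairs, in which Eprs and Fars2 each count 2 times, the log2 ratios had the same sign in 11 and opposite signs in 6. Across these pairs Pearson's r between the log2 ratios was 0.13, given as a description over genes that share the same 2 libraries. The balance of cytosolic to mitochondrial counts shifted toward the cytosolic gene in 4 pairs and toward the mitochondrial gene in 5, and its interval spanned 1 in 8. Sars over Sars2 was 20.8 in the knockdown and 12.1 in the control (ratio of ratios 1.73, 1.29 to 2.33). Cars over Cars2 was 4.52 in the knockdown and 2.67 in the control (1.69, 1.25 to 2.29). In the other direction, Nars over Nars2 was 8.96 in the knockdown and 13.1 in the control (0.682, 0.510 to 0.908). Mars over Mars2 was 1.29 in the knockdown and 1.97 in the control (0.657, 0.535 to 0.806), and Vars over Vars2 was 2.51 in the knockdown and 3.70 in the control (0.679, 0.545 to 0.846). Shifts of the pairs thus went both ways, and their median log2 difference, cytosolic minus mitochondrial, was 0.05.

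**Figure D3:**
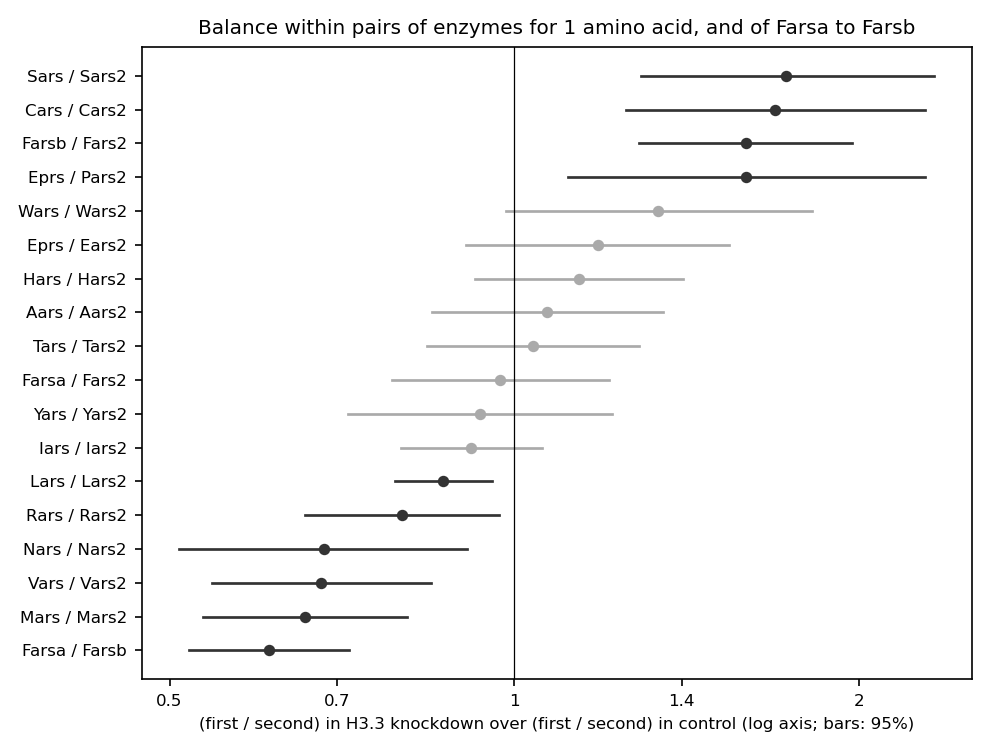
Ratio of ratios for each pair of enzymes (log axis), namely counts of the first over the second gene in the H3.3 knockdown divided by the same in the control, with 95% counting intervals. Dark bars leave out 1. Sars over Sars2 is highest at 1.73 and Farsa over Farsb lowest at 0.611.

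The ATF4 split of the cytosolic enzymes was compared with other ATF4 targets. The 13 cytosolic synthetases described as raised through ATF4 had a median log2 ratio of -0.05, with none higher and only Vars lower by the rule. The 7 other cytosolic genes had a median of -0.16 with none past the rule. Of all tested genes 9.01% were higher and 8.2% lower by the rule. Atf4 itself had 151 CPM in the knockdown and 152 CPM in the control (ratio 0.996, 0.923 to 1.08). In the list of ATF4 and its stress targets 8 of 23 tested genes rose and none fell, and the median log2 ratio was 0.48. Its summed ratio was 1.1 (1.07 to 1.12). The tested genes include Trib3 and Atf3, which reached 1 CPM through the knockdown library, where they are high. With a minimum of 10 CPM, 6 of 18 rose and none fell, with a median of 0.375. Of all genes at that level 14.4% passed in either direction. Eif4ebp1 reached that minimum through the knockdown, at 14.8 CPM in the knockdown and 8.82 CPM in the control. Intervals of 3 members lay below 1, namely Psat1, an enzyme of serine synthesis (3270 counts in the knockdown, 4143 in the control), Shmt2, an enzyme of mitochondrial folate metabolism (487 in the knockdown, 644 in the control), and the stress protein Ddit4 (1680 in the knockdown, 1976 in the control). The 8 that rose included Slc7a11, which imports cystine (52.9 CPM in the knockdown, 20.9 CPM in the control), Trib3, a pseudokinase of the stress response (35 counts in the knockdown, 8 in the control), the folate enzyme Aldh1l2 and the stress protein Sesn2. The members of this list were chosen with earlier results of these libraries known, so its direction is no independent evidence.

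Genes that hold the same core were also set side by side. The 5 synthetases with the core had log2 ratios from -0.17 to 0.16, the highest for Iars, with Gars at -0.16, Yars at -0.14 and Tars at 0.01, and a median of -0.14. The 7 tested genes of the stress list with a core in their window had log2 ratios from 0.37 for Vldlr to 2.14 for Trib3, and Slc7a11, Asns, Pck2, Chac1 and Trib3 rose. Atf3 (13 counts in the knockdown, 7 in the control) and Trib3 reached the filter of 1 CPM through the knockdown library, where they are high, so no median of these genes is given. Asns, which makes asparagine, had 538 counts in the knockdown and 335 in the control. Eprs and Sars, the ATF4 synthetases with a window and no core, had log2 ratios of 0.29 and -0.05. In the stress list Sesn2 rose with no core in its window, while Psat1 and Shmt2, also without one, were at -0.26 and -0.33. No test was made between genes with and without the core.

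**Figure D4:**
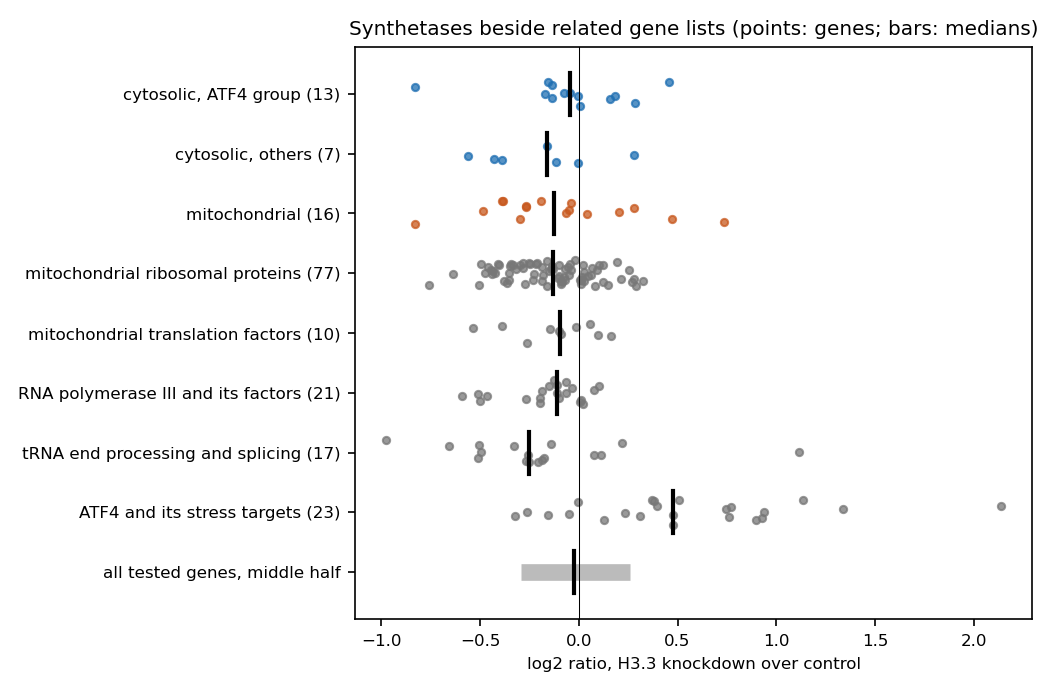
Log2 ratio of H3.3 knockdown over control for the tested genes (points) and median (bars) of each set of synthetases and of related gene lists, with the number of tested genes in parentheses and the interquartile range of all tested genes at the bottom. The medians of the synthetases lie between -0.16 and -0.05, and that of the ATF4 stress list at 0.48. The stress list includes Trib3 and Atf3, which reached the filter through the knockdown, and its median was 0.375 with a minimum of 10 CPM.

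Other ways of grouping the cytosolic enzymes gave medians close to each other. The 8 enzymes of the multi-synthetase complex had a median log2 ratio of -0.12 and the 12 free ones -0.06. Of the complex none passed the rule, and of the free enzymes only Vars did, beside 17.2% of all tested genes. Its scaffold proteins Aimp1, Aimp2 and Eef1e1 had a median of -0.11 with none past the rule, Aimp1 standing at 55.4 CPM in the knockdown and 59.9 CPM in the control. Enzymes of class I and class II, which differ in the fold of their catalytic domain, had medians of -0.12 and -0.10 over 9 and 10 genes. Eprs, which joins both classes, was left out of these.

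Genes around tRNA charging also differed little, and few passed the rule, beside 9.01% of all tested genes higher and 8.2% lower. Of 7 tested accessory and editing proteins 1 fell, Prorsd1, with 16 counts in the knockdown and 42 in the control. With a minimum of 10 CPM none of 5 passed. Of 4 partners of mitochondrial charging none passed the rule, with Gatc, a subunit of the amidotransferase that makes mitochondrial glutaminyl-tRNA, at 50.3 CPM in the knockdown and 50.2 CPM in the control. None of 10 mitochondrial translation factors passed it (median log2 ratio -0.10). Of 77 mitochondrial ribosomal proteins 2 fell and none rose, with a median of -0.13, close to that of the mitochondrial synthetases. The 2 were Mrps15, at 24.7 CPM in the knockdown and 41.9 CPM in the control, and Mrps18b, at 4.94 CPM in the knockdown and 7.73 CPM in the control. With a minimum of 10 CPM, which Mrps18b misses, 1 of 75 fell. Of 21 genes of RNA polymerase III, which transcribes tRNA genes, and its factors, only Gtf3c6 fell (20.9 CPM in the knockdown, 31.6 CPM in the control), a call lost with TMM scaling.

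The list of tRNA end processing and splicing had the lowest median of the related lists, -0.25. By the rule 1 of its 17 genes was higher and 2 lower, beside 9.01% and 8.2% of all tested genes. The higher gene was Rpp25, a protein subunit of RNase P and RNase MRP, with 140 counts in the knockdown and 68 in the control (2.17-fold, 1.62 to 2.95). The lower genes were Tsen54 of the tRNA splicing endonuclease and Rpp40 of RNase P, at 0.632 (0.469 to 0.846) and 0.501 (0.274 to 0.886) of the control. Cytosolic elongation factors had a median of -0.11 and none of 6 past the rule, with Eef1a1, which brings charged tRNA to the ribosome, at 3695 CPM in the knockdown and 3843 CPM in the control. Kinases and phosphatase subunits of eIF2 alpha had a median of 0.02 and chaperones of the endoplasmic reticulum -0.01 (0.00 with TMM scaling), none of 6 and none of 10 past the rule.

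GC content varied with the ratio among the synthetases. Over the 36 genes Pearson's r between the log2 ratio and the GC content of the longest transcript was -0.50 and Spearman's rho -0.39, whereas over 12860 tested genes these were -0.06 and -0.08. The values are descriptions over genes of the same 2 libraries. Vars and Sars2, the members that fell, had GC contents of 60.9% and 60.1%, the highest among the 36. Mars2 had the lowest, 38.8%, and Nars2, the member that rose, had 44.8%. Correction for length and GC content by the trend over all tested genes, which is far weaker, left Vars at a log2 ratio of -0.83, Sars2 at -0.78 and Nars2 at 0.72. Whether the relation among the members remained after this correction was not computed, and its part in these values was not tested.

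**Figure D5:**
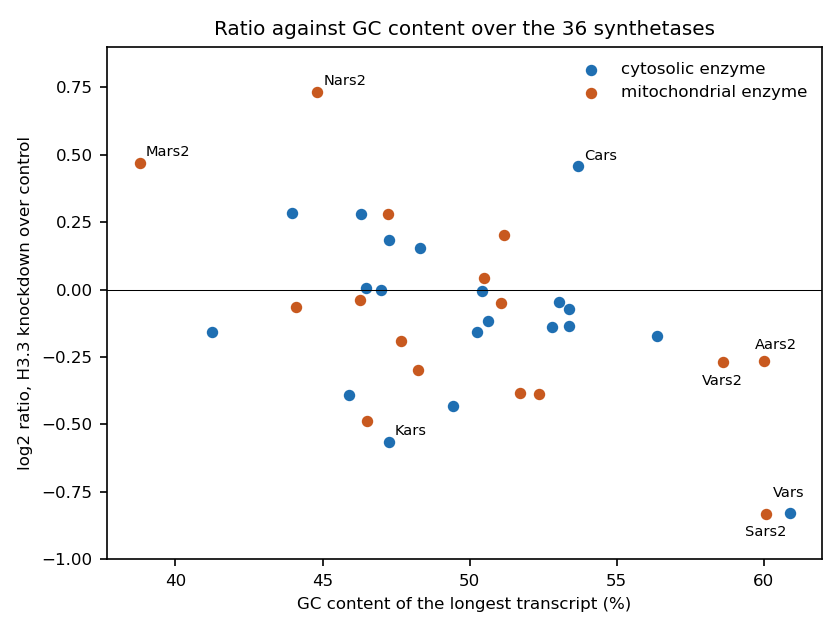
Log2 ratio of H3.3 knockdown over control against GC content of the longest transcript for the 36 synthetases, cytosolic in blue and mitochondrial in orange. Vars and Sars2 lie at the lower right, at GC contents of 60.9% and 60.1%.

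Position gave few links between members. The 36 genes lie on 15 chromosomes. Iars2 and Eprs are neighbours on chromosome 1, 33.6 kb apart and on opposite strands, with log2 ratios of 0.28 and 0.29. Hars and Hars2 are head-to-head neighbours whose exons share 195 bases, and had log2 ratios of 0.00 and -0.19. Exons of 13 members overlap those of another gene, by at least 5% of their length in 7 of them. Of the members described above, Iars2 shares 22.9% of its exon bases with Rab3gap2 on the opposite strand. Aars shares 14.3% with Exosc6 on the same strand, and Farsb 9.47% with Sgpp2 on the opposite strand, which had only 6 counts in the knockdown and 10 in the control. Fars2 shares 8.72% with Nrn1 (139 counts in the knockdown, 75 in the control), Vars2 8.52% with Gm20483, Hars 7.97% with Hars2 and Cars2 5.83% with Naxd, all on opposite strands. No source used here states whether counting used strand. Reads in the shared bases may have been counted for these genes, for their partners or for neither. The ratios of all 7 are uncertain to that extent. None of Vars, Kars, Sars2 and Farsa shares exon bases with another gene, and Nars2 shares 4.08% with an antisense transcript.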

How the data were processed

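Libraries were made from oligo(dT)-enriched RNA (2 µg of total RNA), per the labels' protocols. TopHat2 2.0.12, Bowtie 1.0.1 and HTSeq 0.6.0 are named in the submitters' processing notes, without a genome build or strand setting. The deposited counts are whole reads per gene and were used as deposited. The authors' CPM are those counts over a constant per library, and their fold change and log2 fold change compare the 2 libraries. The authors' p-values, from a test not named in the sources used here, were not used.

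Symbols matched 99.5% of 18510 Ensembl IDs, and 1 emptied line was left out. Positions come from that table, and 78.5% equal those of GENCODE vM21 (GRCm38), which gave lengths and GC content. CPM were recomputed over all listed genes, log2 ratios with 0.5 count added, and exact conditional (Clopper-Pearson) 95% intervals without it. These cover counting error only and treat reads as independent, although amplified reads lack molecular identifiers. A count of 0 would allow 0.345 CPM in the knockdown and 0.327 CPM in the control (3 counts). Levels per kilobase used the transcript with the longest coding sequence, or all annotated exons where stated. Exact Poisson intervals were used for the order of levels. The rule was tried on simulated counts with counting error only, which cannot show how it performs with differences between cultures.

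Members, lists and named genes were chosen with earlier results of these data known. Named were members past the rule, the 8 with intervals farthest from 1, the 4 most abundant per compartment, their pair partners, and up to 4 genes per list. Further members, and Atf3, Atf4, Asns, Pck2, Chac1, Vldlr, Eif4ebp1, Psat1, Shmt2, Ddit4 and the microglia markers, were named after their values were seen. Alternatives used edgeR 4.0.16 (TMM) and DESeq2 1.42.0 (size factors only). RefSeq supplied promoter sequences; those printed are a selection, and 1 was left out because it is not reported here.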

Additional observations from a re-analysis of the deposited data

How the results depend on the processing

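The number of synthetases past the rule was 3, the same 3 genes, with TMM scaling, DESeq2 size factors, totals without the 100 most abundant and mitochondrially encoded genes, 5 counts added, no filter, a minimum of 10 CPM, correction for length and GC content, and the authors' deposited log2 fold change. It was 0 with a 2-fold limit and 19 with the counting interval alone, which follows from the limits themselves. At the minimum of 10 CPM, Nars2 and Sars2 were kept only through the library where each is high. None of 216 recomputed log2 ratios of single synthetases left its counting interval or changed its call. The median of all tested genes moved between -0.05 and 0.01. Hars and Lars turned positive with TMM scaling (0.013 and 0.014), and Tars turned negative with DESeq2 size factors (-0.006). The count of cytosolic genes below 0 therefore depends on the scaling. Without Lars2, chosen after seeing the data, the summed ratio of the mitochondrial enzymes was 0.988 in place of 1.12. The difference of the medians, cytosolic minus mitochondrial, was -0.03 with a minimum of 10 CPM, which removes Pars2, so its sign is not settled. No paired analysis was possible because each group held 1 library, and no library could be left out. With 77 to 145 counts for Sars2 and 88 to 139 for Nars2, depth limits how closely their ratios are known. Summed levels have no value under added counts, filters, length and GC correction or the authors' log2 fold change, and these were not run.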
